A study of Mus musculus with 2 samples.

Results

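Neurotrophins are small secreted growth factors that keep neurons alive and adjust the strength of their synapses. They are made as longer precursors. The mature forms bind Trk receptor kinases, whereas the precursors bind the p75 receptor together with sortilin. In the hippocampus, BDNF acting on TrkB is best known for its part in synaptic plasticity, and transcription of *Bdnf* and of the secretory protein gene *Vgf* follows neuronal activity. The genes described here are *Bdnf* and *Ntf3* (the ligands BDNF and NT-3), *Ntrk2* and *Ntrk3* (the receptors TrkB and TrkC), *Ngfr* (p75), *Sort1* (sortilin), *Vgf*, and *Gdnf*, a growth factor of another family that signals through GFRA co-receptors and RET. They were taken by symbol, 8 of the 55573 rows of the deposited expression table, and each symbol had 1 row.

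RNA-seq of hippocampus from C57BL/6 mice, which the series text places in CA1, was available as 2 libraries. The control library is from *CDK5f/f* mice marked untreated, which carry the floxed *Cdk5* allele without Cre. The mutant library is from *Cdh5-CreERT2;CDK5f/f* mice marked as given tamoxifen, which carry the same allele and a Cre recombinase that the *Cdh5* promoter expresses in endothelial cells and tamoxifen activates. Age at sampling and the number of mice behind each library are not given in the sources used here. With 1 library per genotype there is no replicate and no test between genotypes. Intervals below are exact 95% intervals that cover counting error only, not the spread between mice.

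The libraries hold 19451827 (control) and 18900847 (mutant) counts. *Cdk5*, which neurons also transcribe, had 1261 and 1257 counts, so RNA of the whole tissue does not check its loss in endothelium. *Xist* (15070 and 34 counts) and the Y-linked *Ddx3y* (0 and 771) went opposite ways, so sex, treatment and genotype cannot be told apart in any comparison here. All 13 choroid plexus markers were more than 1.5-fold higher in the mutant library, with their FPKM summing to 173.92 and 3903.56. Of the 7 pituitary markers, *Prl* and *Gh* were counted 236 and 70 times in the control and 0 times in the mutant, whereas *Tshb* had 32 and 31 counts, *Pomc* 13 and 18, and the others at most 9. Striatal markers summed to an FPKM of 25.58 and 39.27 and thalamic markers to 34.09 and 44.26, and endothelial markers to 63.40 and 57.21. Markers of hippocampal neurons were present: the summed FPKM of 10 dentate granule cell genes was 88.05 and 84.16, and that of 7 CA1 pyramidal cell genes 172.22 and 182.17, or 139.34 and 128.09 without *Wfs1* (32.88 and 54.08). In RNA of whole tissue, fewer cells of a type and less RNA per cell cannot be told apart.

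*Bdnf* is transcribed from several alternative starts that all lead to the same coding exon. In GENCODE M21 it has 11 transcripts with 9 different starts and a single end of the coding sequence, so the deposited gene count adds up all of its promoters. RefSeq (GRCm38.p6) windows of 250 bases before to 50 after a start were found for 5 of the 8 genes, 13 windows in all, of which 7 belong to *Bdnf*. They were searched on both strands for the cAMP response element TGACGTCA, its core TGACG (which the full element contains), the E-box CACGTG and the EGR sites GCGTGGGCG and GCGGGGGCG. The core was found in 2 of the 13 windows, 1 of *Bdnf* and 1 of *Gdnf*, against 20.8% of all 32851 windows of the same length. The E-box was found in 1 window, of *Ntf3* (7.15% of all windows). The full element (1.79% of all windows) and the EGR sites (0.612% and 2.91%) were in none of the 13. Below are the 250 bases before 2 *Bdnf* starts and 1 *Gdnf* start, with the core in capitals. They show the *Bdnf* start with the core, the first *Bdnf* start and the other gene that holds the core. The search was for exact letters, so variants of the core were not counted. Which *Bdnf* starts respond to activity was not tested. In the second stretch, which ends before the *Bdnf* exon usually numbered IV, the core TGACG lies on the reverse strand. On the printed plus strand it reads CGTCA and begins 35 bases before the start. This stretch is known for its CREB-binding element. In the *Gdnf* stretch the core begins 50 bases before the start. That start is the RefSeq one at 7810048, whereas the *Gdnf* gene that was counted begins at 7810846. The printed stretch therefore does not lie directly before the counted gene. No base of these stretches lies in an annotated exon of the gene.
*Bdnf* first start, chr2:109674450-109674699, plus strand: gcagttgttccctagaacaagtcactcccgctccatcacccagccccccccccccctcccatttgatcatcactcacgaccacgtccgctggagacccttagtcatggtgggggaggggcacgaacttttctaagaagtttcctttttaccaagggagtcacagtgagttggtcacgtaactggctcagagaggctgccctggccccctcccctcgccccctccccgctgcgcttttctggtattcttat
*Bdnf* exon IV start, chr2:109692186-109692435, plus strand: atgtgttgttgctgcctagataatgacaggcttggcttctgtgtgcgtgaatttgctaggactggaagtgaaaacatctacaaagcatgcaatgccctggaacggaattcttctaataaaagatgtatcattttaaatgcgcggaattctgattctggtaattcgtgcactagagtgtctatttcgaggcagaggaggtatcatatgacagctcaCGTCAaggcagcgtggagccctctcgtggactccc
*Gdnf* start at 7810048, chr15:7809798-7810047, plus strand: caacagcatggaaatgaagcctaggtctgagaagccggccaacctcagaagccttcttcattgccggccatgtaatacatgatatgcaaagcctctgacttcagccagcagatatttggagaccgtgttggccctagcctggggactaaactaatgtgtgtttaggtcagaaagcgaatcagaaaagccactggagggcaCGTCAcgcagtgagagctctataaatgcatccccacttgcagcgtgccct

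The levels of the 8 genes spanned a wide range, and their order was the same in both libraries. Levels are given as FPKM, the count scaled to exonic length and to the library total, which allows genes of different length to be compared. *Sort1* and *Vgf* were the highest. The sorting receptor gene *Sort1* had an FPKM of 101.51 (control) and 96.18 (mutant), and 1.92% of all genes tested lay above it in the control library. *Vgf*, whose product is cut into secreted peptides, was at 84.63 and 84.51. *Ntrk2* followed at 30.19 and 29.28. The middle of the order was taken by *Ntrk3* (FPKM 8.53 and 7.77) and *Bdnf* (5.56 and 5.91), and the ligand *Bdnf* thus lay below its receptor. *Ntf3* reached 2.28 and 2.96. *Ngfr* was at 0.81 and 1.21, with 96.6% of genes tested above it in the control library. *Gdnf*, with 2 and 7 counts, had an FPKM of 0.03 and 0.10.

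**Figure D1:**
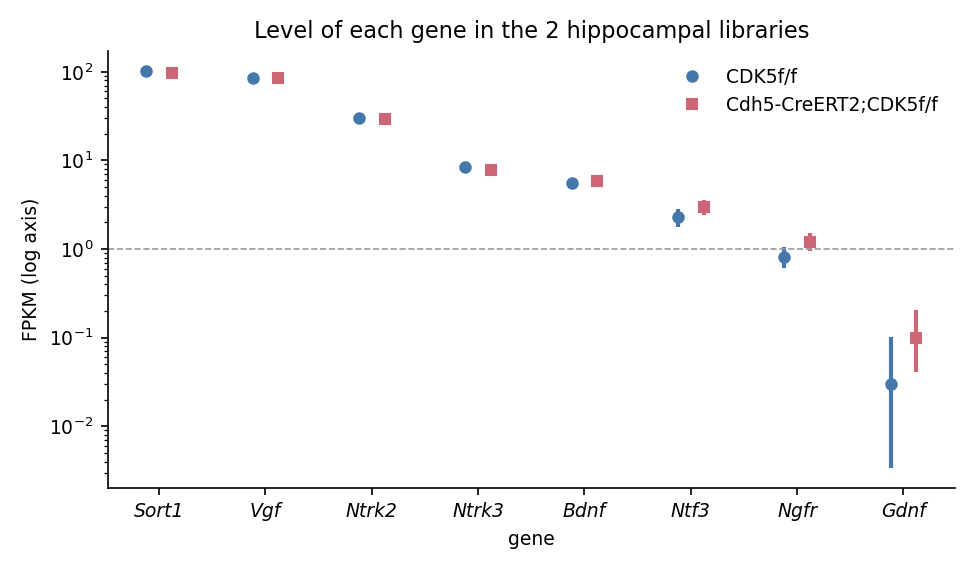
FPKM (log axis) of the 8 genes in the control (blue circles) and mutant (red squares) library, with exact 95% Poisson counting intervals as vertical bars and the FPKM minimum of 1 as a dashed line. The genes fall in the same order in both libraries, from *Sort1* at 101.51 and 96.18 to *Gdnf* at 0.03 and 0.10.

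Each step in this order was larger than counting error. The smallest steps were from *Sort1* to *Vgf*, with a ratio of FPKM of 1.20 (interval 1.16 to 1.24) in the control and 1.14 (1.10 to 1.18) in the mutant, and from *Ntrk3* to *Bdnf*, with 1.54 (1.42 to 1.67) and 1.31 (1.21 to 1.43). The spread between mice is unknown for these steps. The order also rests on the exonic length used. The table merges all exons of a gene, 19292 bases for *Ntrk2* and 30170 for *Ntrk3*, more than any single transcript has. Both receptor genes encode full-length kinases and truncated forms without the kinase domain, and the count does not separate them: the 7 coding transcripts of *Ntrk2* have 5 different ends of the coding sequence, and the 4 *Ntrk3* transcripts with a complete coding end have 2. Divided by the longest coding transcript instead, the control library gave 66.6 for *Ntrk2* and 13.1 for *Ntrk3*, and the order stayed the same. Divided by the median coding transcript it gave 191 for *Ntrk2*, above *Sort1* at 113 and *Vgf* at 104, and 94.4 for *Ntrk3*. The *Ntrk3* median is taken over 6 coding transcripts of 423 to 19703 bases, of which only 4 have a complete coding end. Its value thus rests partly on incomplete transcripts.

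Between the libraries, none of the 7 genes tested differed by over 1.5-fold in FPKM + 1. Differences are given as log2 ratios, mutant to control, after adding 1 to the FPKM, for genes whose FPKM reached 1 in either library, here called tested. This held for 7 of the 8 genes and not for *Gdnf*. Of 14769 genes tested, 1005 were past 1.5-fold (6.8%), 538 higher and 467 lower in the mutant library. That share falls with depth, from 34.8% under 100 counts over both libraries to 4.84% from 100 to under 1000 and 0.996% from 1000 to under 10000, and each of the 7 genes had at least 100 counts. The 7 genes had a median of -0.0020, beside 0.0019 over all genes tested, with 3 genes above 0 and 4 below. The log2 ratios ran from -0.12 for *Ntrk3* to 0.29 for *Ngfr*.

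**Figure D2:**
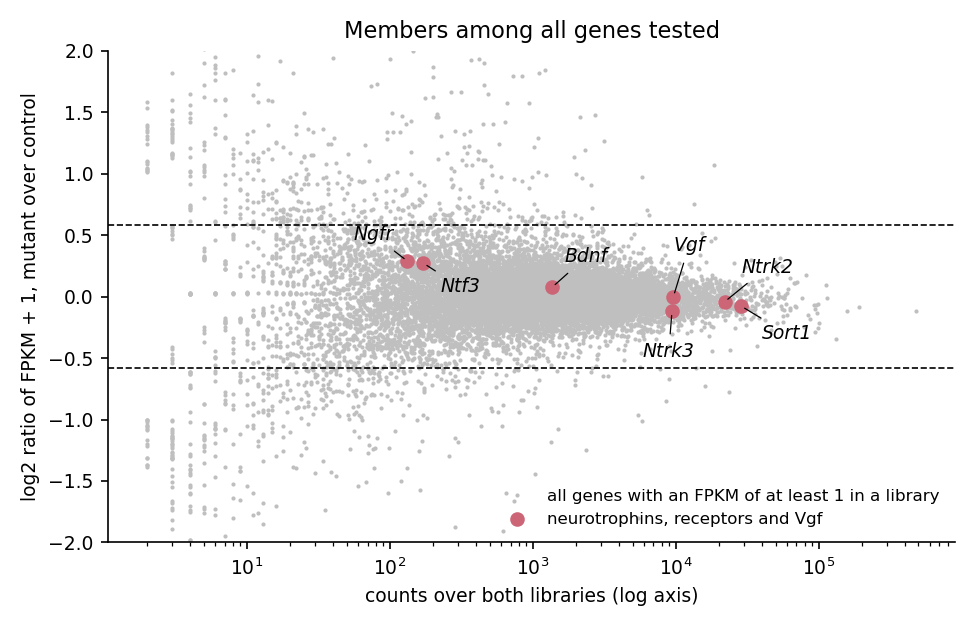
Log2 ratio (mutant to control, FPKM + 1) against counts over both libraries (log axis) for all 14769 genes tested (grey) and the 7 tested genes named here (red), with 1.5-fold as dashed lines and 67 genes beyond the vertical axis not drawn. All 7 lie between -0.12 and 0.29, inside the dashed lines.

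The counting interval of the ratio of counts per library total lay away from 1 for 4 of the 7 tested genes. This was so for 37.5% of all genes tested, and the share grows with depth: it was 33.8% among genes with 100 to under 1000 counts over both libraries, 41.9% from 1000 to under 10000 and 67.4% from 10000 on. The interval lay below 1 for *Ntrk2*, *Ntrk3* and *Sort1* (17.9% of all genes tested) and above 1 for *Ngfr* alone (19.7%). From 10000 counts on, the depth of *Ntrk2* and *Sort1*, it lay below 1 for 39.0% of all genes and above 1 for 28.5%. From 1000 to under 10000 counts, the depth of *Ntrk3*, these shares were 20.1% and 21.8%. *Ngfr* was tested only because its FPKM passed 1 in the mutant library, where it was higher, so its place among the 4 depends on the filter. An interval away from 1 says that the 2 libraries differed by more than counting error. It does not compare genotypes.

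Of the ligands, *Bdnf* lies on chromosome 2 of GRCm38 from 109674700 to 109727007 (ENSMUSG00000048482). It was counted 672 times (control) and 694 times (mutant). The ratio was 1.06 (interval 0.954 to 1.18), which includes 1, so this depth shows no difference, and 53.1% of the genes with 1000 to under 10000 counts had a ratio at least as far from 1. *Ntf3* (chromosome 6, 126101412 to 126166910, ENSMUSG00000049107) encodes NT-3, the preferred ligand of TrkC. It was counted 76 and 96 times. With so few counts its ratio of 1.30 had an interval of 0.952 to 1.78 that includes 1, and 24.3% of genes with 100 to under 1000 counts lay at least as far from 1.

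The 3 receptor genes with many counts had ratios just below 1. *Ntrk2*, which encodes TrkB, spans 58806569 to 59133970 on chromosome 13 (ENSMUSG00000055254). Its counts were 11331 (control) and 10676 (mutant), a ratio of 0.970 (interval 0.944 to 0.996). Leaving the choroid plexus markers out of the library totals moved its upper bound to 1.00153, so that it included 1. Among genes with at least 10000 counts, 67.9% had a ratio at least as far from 1. *Ntrk3*, which encodes TrkC, spans 78175959 to 78738012 on chromosome 7 (ENSMUSG00000059146). With 5006 and 4428 counts it had a ratio of 0.910 (interval 0.874 to 0.948), the lowest of the 8 genes, and 34.3% of genes of the same depth class as *Bdnf* lay at least as far from 1. *Sort1*, whose product binds proneurotrophins with p75 and also sorts BDNF into secretory vesicles, lies on chromosome 3 (108284082 to 108361511, ENSMUSG00000068747). With 14946 and 13760 counts its ratio was 0.947 (interval 0.926 to 0.970), and 51.0% of genes of its class lay at least as far from 1. Astrocytes make much of the truncated TrkB of the brain. In the same libraries 7 of 10 astrocyte markers had log2 ratios below 0, with summed FPKM of 732.81 and 679.99 and none of the 10 past 1.5-fold. The median of the astrocyte markers was -0.11, beside 0.0019 over all genes tested. *Camk2a*, a kinase gene of excitatory neurons, had a ratio of 0.920 (interval 0.911 to 0.929). Markers of hippocampal neurons went both ways. Of 7 tested CA1 markers, 3 had log2 ratios above 0 and 4 below, and of 9 tested dentate granule cell markers, 4 and 5. The part of these cells in the receptor ratios was not tested.

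*Ngfr* went the other way. The gene lies on chromosome 11 from 95568818 to 95587735 (ENSMUSG00000000120) and encodes p75, which is weakly expressed in adult hippocampus and strongly by cholinergic neurons of the basal forebrain. Its counts were 54 (control) and 79 (mutant), a ratio of 1.51 with a wide interval of 1.05 to 2.17. Its log2 ratio was 0.29, within 1.5-fold, since adding 1 to so low an FPKM draws the ratio towards 0. Of the genes with 100 to under 1000 counts, 11.3% had a ratio at least as far from 1. The 6 markers of cholinergic neurons were at or near 0 in both libraries: *Chat* had 4 and 3 counts, *Slc18a3* 1 and 2, *Lhx8* 0 and 0, and the summed FPKM was 0.40 and 0.23. Meningeal fibroblast markers had a median log2 ratio of 0.23, 7 of 9 being above 0, and a summed FPKM of 21.92 and 27.88. *Igf2* led them with 93 and 324 counts (log2 ratio 1.12). The 2 below 0 were *Col1a1* (-0.06) and *Dcn* (-0.07), which is also among the CA1 markers. Choroid plexus markers were higher in the mutant library too (summed FPKM 173.92 and 3903.56). Which cells gave the *Igf2* counts was not tested. Markers of pericytes and smooth muscle had a median of 0.05 and summed to 35.61 and 32.57. The part of these cells in the *Ngfr* count was not tested.

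*Vgf*, induced by neurotrophins and by activity, was the gene with the closest values. It lies on chromosome 5 from 137026392 to 137033351 (ENSMUSG00000037428) and was counted 4894 and 4749 times, a ratio of 0.999 (interval 0.959 to 1.04). *Gdnf* (chromosome 15, 7810846 to 7837575, ENSMUSG00000022144) was counted 2 times (control) and 7 times (mutant). The ratio of 3.60 has a counting interval of 0.686 to 35.5, so no difference was detectable.

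**Figure D3:**
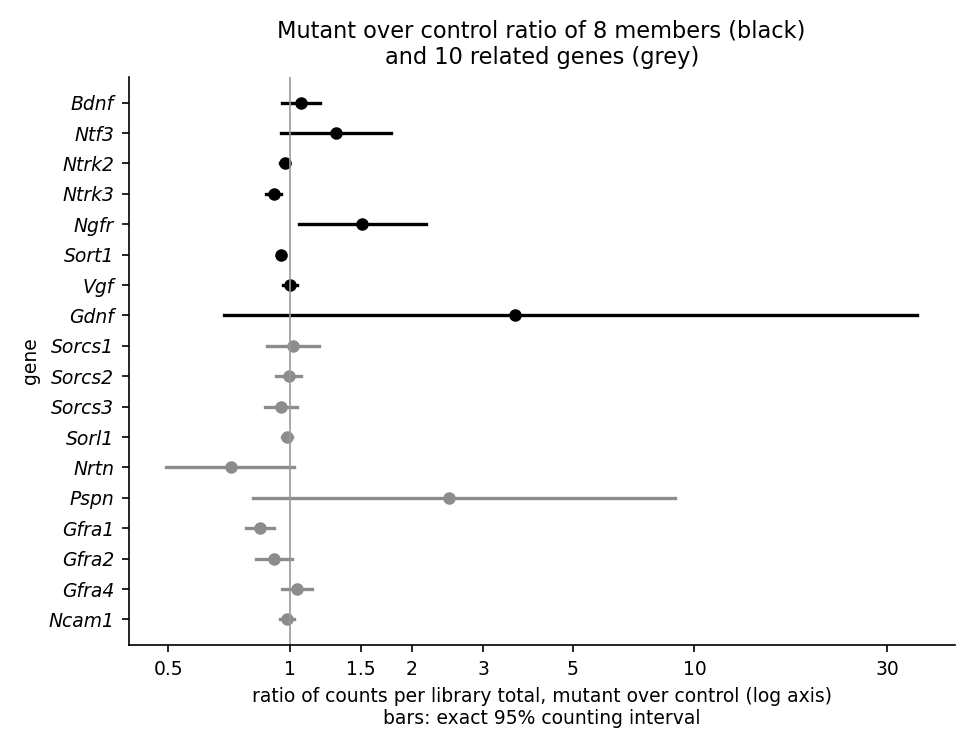
Ratio of counts per library total, mutant over control (log axis), with exact 95% counting intervals, for the 8 genes (black) and for 10 related tested genes of the neurotrophin and GDNF families (grey). *Vgf* sits at 0.999, *Ntrk3* at 0.910 and *Ngfr* at 1.51, and the widest interval is that of *Gdnf*, 0.686 to 35.5.

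Receptors were also set against ligands within each library, which does not depend on the library total. All 8 pairs of the 4 receptor genes with *Bdnf* and *Ntf3* were computed, as ratios of FPKM. Their size rests on the merged exonic lengths, a choice that the intervals do not cover. Divided by the median coding transcript, the control library gave 191 for *Ntrk2* and 8.85 for *Bdnf*. It gave 94.4 for *Ntrk3*, whose median includes incomplete transcripts, and 2.79 for *Ntf3*. The change of a ratio between the libraries does not depend on the lengths. *Ntrk2* was 5.43 times *Bdnf* in the control (interval 5.03 to 5.88) and 4.96 times in the mutant (4.59 to 5.36). The change of that ratio was 0.912-fold (0.817 to 1.02), an interval that includes 1. *Ntrk3* was 3.74 times *Ntf3* in the control (2.98 to 4.76) and 2.62 times in the mutant (2.14 to 3.24), a change of 0.700-fold (0.510 to 0.959). The change was below 1 in 6 of the 8 pairs, those of *Ntrk2*, *Ntrk3* and *Sort1*. Its interval excluded 1 in 4 of them: *Ntrk3* and *Sort1*, each with either ligand. The pairs share their genes and are not independent. No share over pairs of other genes was computed to set beside these counts. Their direction restates the ratios of the single genes, with both ligands above 1 and these 3 receptors below. For *Sort1* the bounds came close to 1, with 0.891 (0.799 to 0.995) against *Bdnf* and 0.729 (0.532 to 0.996) against *Ntf3*. *Ngfr* against *Bdnf* gave 1.42 (0.972 to 2.08).

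Other genes of the pathway were nearly all within 1.5-fold, as were most genes of their depth. Across 7 lists, from neurotrophins and receptors to regulators of *Bdnf* transcription, 119 genes other than the 8 were tested. Of these, 118 had at least 100 counts over both libraries and none of the 118 was past 1.5-fold, beside 4.84%, 0.996% and 1.07% of all genes in the 3 depth classes from 100 counts on. *Pspn*, under 100 counts, was past 1.5-fold, higher in the mutant library (0.840% of the 119). The median log2 ratio was -0.0089. *Pspn*, which encodes the GDNF family ligand persephin, rests on 5 and 12 counts, with a ratio of 2.47 and an interval of 0.810 to 8.95 that includes 1. It was tested only through the mutant library, with an FPKM of 0.54 and 1.34. Of the 119, 22 had counting intervals above 1 (18.5%, beside 19.7% of all genes tested) and 34 below 1 (28.6%, beside 17.9%). Together these were 47.1% of the 119, beside 37.5% of all genes. By depth, the interval lay away from 1 for 12 of 26 genes from 100 to under 1000 counts (46.2%, beside 33.8% of all genes of that depth), 32 of 77 from 1000 to under 10000 (41.6%, beside 41.9%) and 12 of 15 from 10000 on (80.0%, beside 67.4%).

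**Figure D4:**
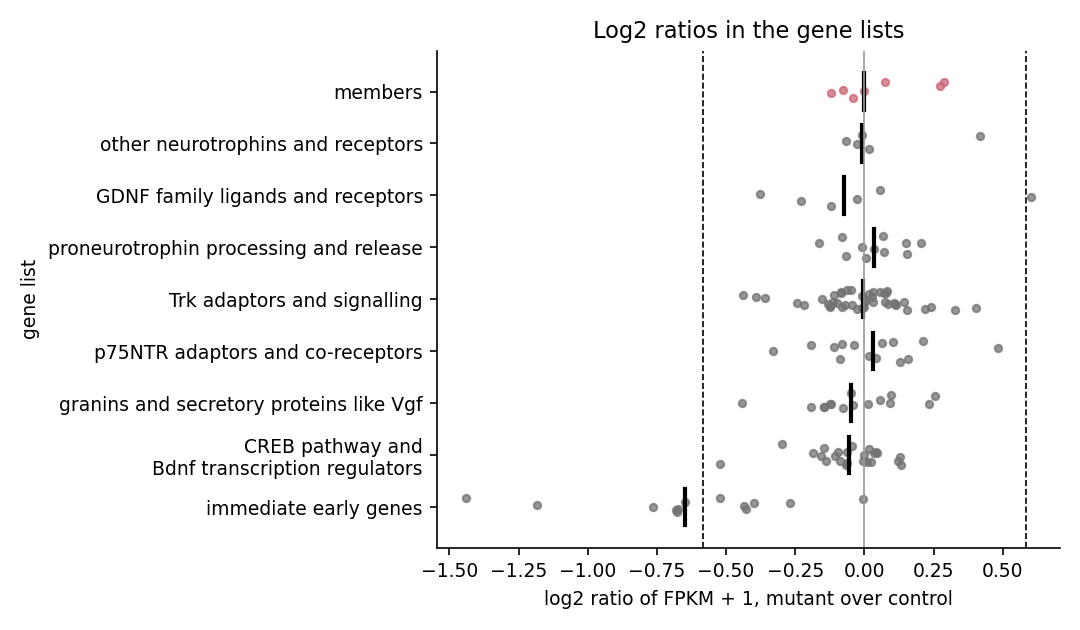
Log2 ratio (mutant to control, FPKM + 1) of each tested gene by gene list, the genes named here in red and the others in grey, with the median of each list as a black bar and 1.5-fold as dashed lines. *Pspn* at 0.60 is the point beyond the right line, and the immediate early genes, with a median of -0.65, are the list with points beyond the left line.

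Among the other neurotrophin and receptor genes, the sortilin family genes *Sorl1*, *Sorcs1* and *Sorcs3* had log2 ratios of -0.03, 0.02 and -0.07, with intervals that include 1. *Ntf5*, which encodes the other TrkB ligand NT-4, had 9 and 9 counts and stayed below the FPKM minimum. Of 6 GDNF family genes tested, *Gfra1*, the main GDNF co-receptor gene, had 1390 and 1136 counts and a ratio of 0.841 (interval 0.777 to 0.910). *Nrtn*, which encodes neurturin, had a log2 ratio of -0.38 on 78 and 54 counts, and *Gfra2*, its co-receptor gene, had -0.12. *Ret* stayed below the FPKM minimum with 110 and 121 counts.

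Genes that cut and release neurotrophin precursors kept within a log2 ratio of 0.21. Of 11 tested, 4 had intervals above 1 and 3 below, beside 19.7% and 17.9% of all genes tested. The 4 with the largest ratios were the convertase genes *Pcsk1* (log2 ratio 0.21), *Pcsk6* (-0.16) and *Pcsk7* (0.15), and *Cadps2* (0.15), which promotes release of dense-core vesicles. *Furin*, the convertase of the Golgi, was counted 964 and 992 times (ratio 1.06, interval 0.968 to 1.16).

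Of 44 tested Trk adaptor and signalling genes, none was past 1.5-fold (6.8% of all genes tested), and the median log2 ratio was -0.0036. Intervals lay above 1 for 7 and below 1 for 11, beside 19.7% and 17.9% of all genes tested. The kinase genes *Rps6ka1* and *Rps6ka2*, downstream of ERK, went opposite ways with log2 ratios of -0.44 (375 and 248 counts) and 0.40 (935 and 1263 counts). *Plcg2* had -0.39, whereas *Plcg1*, the phospholipase gene that TrkB recruits in neurons, had 2529 and 2463 counts and a ratio of 1.00 (0.948 to 1.06). Of the 14 tested p75 adaptor and co-receptor genes, none was past 1.5-fold, beside the same 6.8%. Intervals lay above 1 for 5 of the 14 and below 1 for 3, beside 19.7% and 17.9% of all genes tested. Log2 ratios included 0.48 for *Nradd*, which resembles p75 (43 and 72 counts), 0.21 for *Bex3*, an adaptor of p75, and -0.19 for *Ripk2*.

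The list of granins and secretory proteins like *Vgf* had 15 tested genes, with a median log2 ratio of -0.05. It includes the neuronal pentraxin genes *Nptx1*, *Nptx2* and *Nptxr*, with ratios of 0.904, 0.897 and 0.918. Of the 15 intervals, 8 lay below 1, those of the pentraxin genes among them, and 3 above. Over all genes tested, 17.9% lay below 1 and 19.7% above, and from 10000 counts on 39.0% and 28.5%. The largest log2 ratios were -0.44 for *Pdyn*, the prodynorphin gene of dentate granule cells (287 and 191 counts), 0.26 for *Tac1*, 0.23 for *Chga* and -0.19 for *Scg3*. Of 24 tested regulators of *Bdnf* transcription, 8 intervals lay below 1 and 2 above, beside 17.9% and 19.7% of all genes tested. Their median log2 ratio was -0.05. *Npas4*, an activity-induced factor that binds *Bdnf* promoters, had 550 and 349 counts (log2 ratio -0.52). *Atf1* (-0.30) and *Mef2a* (-0.19) followed, and *Crtc1*, a coactivator of CREB, had -0.16. *Creb1* itself had a ratio of 0.889 (interval 0.814 to 0.970).

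Immediate early genes, which activity induces as it does *Bdnf* and *Vgf*, were lower in the mutant library. All 13 tested had log2 ratios below 0, 7 were past 1.5-fold and the median was -0.65. Intervals lay below 1 for 12 of the 13, beside 17.9% of all genes tested. The other gene, *Homer1*, was level, with 2665 and 2581 counts and a ratio of 0.997 (interval 0.944 to 1.05). Over all genes tested, 6.8% were past 1.5-fold in either direction. The share was 4.84% from 100 to under 1000 counts and 0.996% from 1000 to under 10000. The 4 largest were *Btg2* (-1.44), *Dusp1* (-1.18), *Fos* (-0.77) and *Egr4* (-0.68). The others past 1.5-fold were *Ier2* (-0.68), *Arc* (-0.67) and *Junb* (-0.65). Beside them *Bdnf* was at 0.07 and *Vgf* at -0.0020. The neuronal pentraxin gene *Nptx2*, also induced by activity, was at -0.15.

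The table annotates 73 further genes to Gene Ontology terms that name neurotrophins, 61 of them tested. For 6 of the 8 genes the process annotation reads as removed, so this list is incomplete. Its median log2 ratio was 0.016. *Rps6kb2*, a ribosomal S6 kinase gene with 119 and 18 counts (log2 ratio -0.89), was past 1.5-fold lower, and none was higher. It shares 45 bases with *Coro1b* on the other strand (111 and 187 counts) and lies over *Ptprcap* (0 and 0). The next were *Dusp6* (-0.58), *Nradd* (0.48) and *Rit2* (-0.45).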

How the data were processed

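The authors deposited raw counts per gene and FPKM for a control and a mutant library. Their FPKM is the count divided by exonic length and by the library total, to rounding. Tools listed by the submitters' processing notes are HTSeq 0.6.1, HISAT2 2.0.1, DESeq2 and cutadapt 1.9.1, without roles, with build mm9, whereas the coordinates of the table are those of GRCm38. Strand use in counting is not given in these sources, which leaves overlapping genes uncertain: 4 genes over *Ntrk3* had 93 and 81 counts in all, and genes over *Bdnf* and *Sort1* at most 4 in all per library. A BLAST 2.17.0 search of GENCODE M21 transcripts found no near-identical copy of the 8 genes elsewhere (95% identity over 200 bases and 50% of the shorter transcript).

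Genes whose FPKM reached 1 in either library were compared by log2(FPKM + 1), with 1.5-fold as the size that counts as called. Of rows sharing a symbol, the one with more counts was used. Ratios of counts per library total carry exact conditional (Clopper-Pearson) 95% intervals, levels exact Poisson intervals, and ratios of ratios the conditional odds ratio. Genes named from each list are up to 4 with the largest ratios and those past 1.5-fold, and any others were picked with their values in view. Some genes this rule picks are not reported here. The genes and lists were chosen with earlier results of these data known. Steps were tested on simulated data. Python 3.11.15, numpy 2.4.6, pandas 2.3.3, scipy 1.17.1, matplotlib 3.10.9, R 4.3.3 and edgeR 4.0.16 (TMM factors only) were used.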

Additional observations from a re-analysis of the deposited data

How the results depend on the processing

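No paired analysis was possible because each genotype has 1 library, and for the same reason no library could be left out. The ratios of the 8 genes were recomputed with TMM factors, median-of-ratios size factors, totals without choroid plexus markers, totals without mitochondrial genes, and overlapping genes added. All 40 values stayed inside their counting intervals, and 1, for *Vgf*, crossed to the other side of 1. The number of genes with an interval away from 1 was 4, or 3 without the choroid plexus markers in the totals (a check chosen after seeing the data). On the log2(FPKM + pseudocount) scale none of the tested genes among the 8 was past 1.5-fold under any setting, and *Gdnf*, below the FPKM minimum, went from 0.09 to 0.62 with a pseudocount of 0.1, which is past it. The count over all genes moved from 1005 to 1732 with a pseudocount of 0.1, 293 at an FPKM of at least 5, 435 at 2-fold and 343 with at least 100 counts. In the pathway lists it moved from 1 to 3 with a pseudocount of 0.1 (*Npas4*, *Nradd* and *Pspn*) and to 0 in the other 3 of these settings. The order of levels under other transcript lengths was also a check chosen after seeing the data, and its values stand in the report.

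Depth limits *Gdnf*, *Ngfr* and *Ntf3* most, with 2 to 96 counts per library. For no gene is the spread between mice known.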
